A study of Homo sapiens with 24 samples.

Results

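The interferon-stimulated genes followed here are 60 genes that cells switch on in answer to interferons, chosen by name from a fixed list, out of 26475 genes with a deposited value. They were measured by RNA-seq in 24 libraries of 786-M1A and OS-LM1 cells, established metastatic derivatives of the clear cell renal cell carcinoma (ccRCC) lines 786-O and OS-RC2, in an experiment on the renal lineage factor PAX8. Each line was measured with shPAX8-1, with shPAX8-2, both RNA interference constructs against PAX8, and with sgNTC18, a name that stands for a non-targeting guide RNA, with 4 libraries in each of the 6 groups. All groups were grown in RPMI with 10% serum and share the luciferase transgene that both lines carry, and no interferon treatment is named in the labels.

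The study's methods describe its control as an RNA interference construct, whereas the labels of the control libraries name sgNTC18. PAX8 depletion, the kind of construct and any difference between experiments therefore cannot be told apart in a comparison with sgNTC18. The labels do not say whether replicates came from separate cultures, so p-values measure the spread between these libraries, which may be technical.

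Type I interferons bind a receptor made of IFNAR1 and IFNAR2 and act through the kinases JAK1 and TYK2. These kinases activate transcription factors, among them STAT2, which joins IRF9 and binds interferon-stimulated response elements in the promoters of target genes. Type II interferon acts through a different receptor and element. The targets include sensors of viral RNA, enzymes that trigger its decay, proteins that block viral entry or translation, and the small ubiquitin-like modifier ISG15 with the enzymes that attach and remove it. Many cancer cells hold part of this programme active without added interferon. STAT2, IRF7 and IRF9 are themselves interferon targets.

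Most members with a known promoter window carried the core of the interferon-stimulated response element in it. A promoter window of 300 bases, from 250 before to 50 after a RefSeq start site in the GRCh38.p14 assembly, was given for 48 of the 60 members. The core of the response element, GAAANNGAAA on either strand, stood in the window of 35 of these 48, or 72.9%, against 4.38% of all 27305 genes with a window. The element of type II interferon, TTCNNNGAA, which reads alike on both strands, stood in 13 of the 48, or 27.1%, against 9.38% of all genes. These matches are a description of the sequence and not evidence of binding. The following stretches of 100 bases show the core in capitals in 3 genes that were high in 786-M1A sgNTC18 libraries and near 0 or low in the other 786-M1A libraries (ISG15, IFI6 and IFI27).
ISG15, chr1:1013342-1013441, plus strand: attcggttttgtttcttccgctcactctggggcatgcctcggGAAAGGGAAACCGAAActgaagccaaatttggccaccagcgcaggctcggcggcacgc
IFI6, chr1:27672263-27672362, minus strand: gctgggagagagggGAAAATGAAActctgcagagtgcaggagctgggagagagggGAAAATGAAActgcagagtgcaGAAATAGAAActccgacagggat
IFI27, chr14:94110589-94110688, plus strand: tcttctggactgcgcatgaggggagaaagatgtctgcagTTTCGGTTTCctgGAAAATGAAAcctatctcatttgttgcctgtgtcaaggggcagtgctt

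The same core stood in the promoters of genes with other patterns. SAMD9 and GBP1 were lower with shPAX8 in 786-M1A and higher in OS-LM1, and LGALS3BP was called lower with 1 construct only in 786-M1A.
SAMD9, chr7:93118061-93118160, minus strand: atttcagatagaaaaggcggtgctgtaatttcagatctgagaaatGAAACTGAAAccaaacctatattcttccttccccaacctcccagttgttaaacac
GBP1, chr1:89065281-89065380, minus strand: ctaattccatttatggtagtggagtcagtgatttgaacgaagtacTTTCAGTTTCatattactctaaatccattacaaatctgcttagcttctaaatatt
LGALS3BP, chr17:78979927-78980026, minus strand: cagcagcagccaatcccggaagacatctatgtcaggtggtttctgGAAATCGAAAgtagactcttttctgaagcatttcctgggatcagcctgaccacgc

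OAS1, which also differed strongly between the 786-M1A groups, had no match to GAAANNGAAA in its window, and the 100 bases before its start site are shown for comparison. Near its end the stretch holds GAAA repeats set closer together than the search allowed. The lack of a match therefore does not mean that OAS1 has no response element.
OAS1, chr12:112906862-112906961, plus strand: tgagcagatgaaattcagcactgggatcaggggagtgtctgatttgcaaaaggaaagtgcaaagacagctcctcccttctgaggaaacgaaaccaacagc

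Of the members with a window, the 35 with the core had a median log2 fold change of -3.08 between shPAX8-1 and sgNTC18 in 786-M1A. The 12 tested members without a match to the core, OAS1 among them, had one of -3.16. In OS-LM1 the medians for shPAX8-1 were 0.29 over 34 members with the core and -0.15 over 12 without it. For shPAX8-2 there they were -0.18 and -0.29, and no test was made between members with and without the core. The sequences of both PAX8 constructs, as listed by the study, are given because the constructs are compared with each other below.
shPAX8-1: tgtgagtcaatgcttagtcggc
shPAX8-2: tagagttgtgttaataatggag

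Libraries held between 11634419 and 52059375 expected counts, the read numbers that RSEM assigns to a gene. Values are given below as CPM, counts per 1000000 counts after scaling of the libraries by the trimmed mean of M-values (TMM). PAX8 itself was at 292 to 393 CPM in 786-M1A sgNTC18 libraries, at 14.8 to 22.9 with shPAX8-1 and at 40.0 to 45.5 with shPAX8-2. In OS-LM1 it was at 245 to 279 CPM with sgNTC18, 59.9 to 89.2 with shPAX8-1 and 63.8 to 97.0 with shPAX8-2. Of 10 renal epithelial and ccRCC markers, 9 were above a mean of 1 CPM in each 786-M1A group and all 10 in each OS-LM1 group. The leukocyte gene PTPRC reached at most 0.318 CPM in any library. Of the 12 leukocyte markers, 3 or 4 were above 1 CPM in a group, with CD3E and MS4A1 at 0 in all 24 libraries, and CD68, a lysosomal protein, made up most of their summed level. This sum was 188 to 221 CPM in 786-M1A sgNTC18 libraries and 205 to 405 in the depleted ones. In OS-LM1 it was 83.9 to 97.9 CPM with sgNTC18, 254 to 365 with shPAX8-1 and 196 to 269 with shPAX8-2. The summed level of 6 fibroblast markers was 535 to 726 CPM in 786-M1A with sgNTC18, 203 to 425 with shPAX8-1 and 671 to 891 with shPAX8-2. In OS-LM1 it was 14.9 to 20.2, 92.0 to 114 and 102 to 207 CPM. None of 6 endothelial markers exceeded a mean of 1 CPM in any group. The part of these genes in the results was not tested. In bulk RNA a change in the share of cells that express a gene and a change in its level per cell cannot be told apart. The 4 shPAX8-1 libraries of 786-M1A fell into 2 pairs, replicates 1 and 2 and replicates 3 and 4, that differed more between than within pairs, and results that rest on them were also computed for each pair alone. RSEM divides reads that map to several genes, and 27 of the 60 members had fractional counts in at least 12 libraries, among them IFITM1 to IFITM3, GBP1 to GBP4, SAMD9L, MX1, MX2, IFIT1 and IFIT3. Values of these 27 members are less certain than those of the 28 members with whole counts in every library. With which genes the reads were shared was not examined.

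The summed level of the members separated 1 group from the other 5. That most members were high in 786-M1A with sgNTC18 was known when they were chosen. Comparisons with this group therefore describe the pattern and give no independent support for it. The 58 members that passed the count filter over both lines added up to 8468 to 8973 CPM in the 4 786-M1A sgNTC18 libraries. The other 20 libraries held 2193 to 4027 CPM, so no library of another group came near. With LGALS3BP, IFITM3 and BST2 left out, the 3 members with the highest mean CPM over all 24 libraries, chosen after their values were seen, the sums were 5828 to 6492 CPM in 786-M1A sgNTC18 libraries and 1034 to 2275 CPM elsewhere. In 786-M1A sgNTC18 libraries alone, IFI6 exceeded BST2, at a mean of 677 against 501 CPM.

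The level of the typical member placed the same group highest. The median log2 CPM of these 58 members was 6.25 to 6.49 in 786-M1A sgNTC18 libraries. It was 4.72 to 4.79 in OS-LM1 with shPAX8-1, 4.23 to 4.36 in OS-LM1 with sgNTC18 and 3.85 to 4.04 in OS-LM1 with shPAX8-2. In 786-M1A it was 3.11 to 3.35 with shPAX8-2 and 3.0 to 3.13 with shPAX8-1. Neighbours in this order did not overlap, except the 2 PAX8-depleted groups of 786-M1A, whose ranges overlapped.

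**Figure D1:**
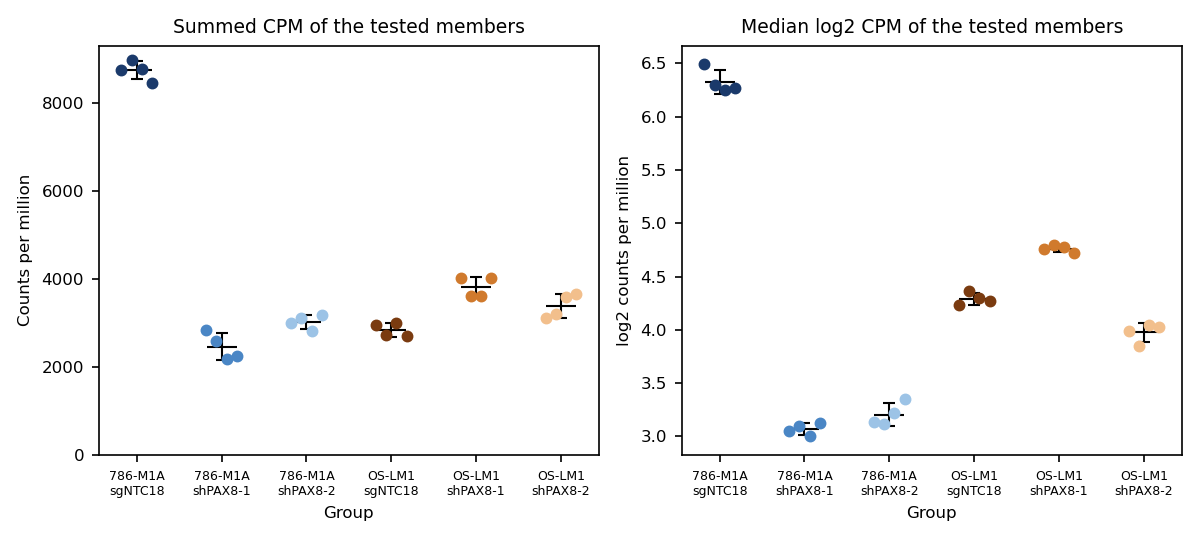
Summed CPM (left) and median log2 CPM (right) of the 58 tested members in each library, by group; points are libraries, and bars give the mean and SD of 4 libraries. The 4 sgNTC18 libraries of 786-M1A lie between 8468 and 8973 CPM, above the other 20 libraries.

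The control libraries of 786-M1A were alike in this respect, and the control libraries of OS-LM1 were not high. All 4 libraries of 786-M1A sgNTC18 lay above all of the other 20 libraries for 46 of the 58 members, whereas 8.81% of the 15665 genes tested over both lines did so. CXCL10 is among the 46, but it passed the filter through this group alone, which fixed its place in advance. No member lay above all other libraries in OS-LM1 sgNTC18, where 6.64% of all genes did, and for 3 members these 4 libraries lay below all others, beside 4.95% of all genes. The spread between replicates was small in the high group, with a median SD of 0.14 on the log2 CPM scale over the members against 0.176 over all genes. The high level was thus a property of the whole group of 4 libraries labelled 786-M1A sgNTC18, and not of 1 outlying library. A state of the 786-M1A line before depletion, of the cells that received sgNTC18 and of the experiment they came from cannot be told apart here.

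**Figure D2:**
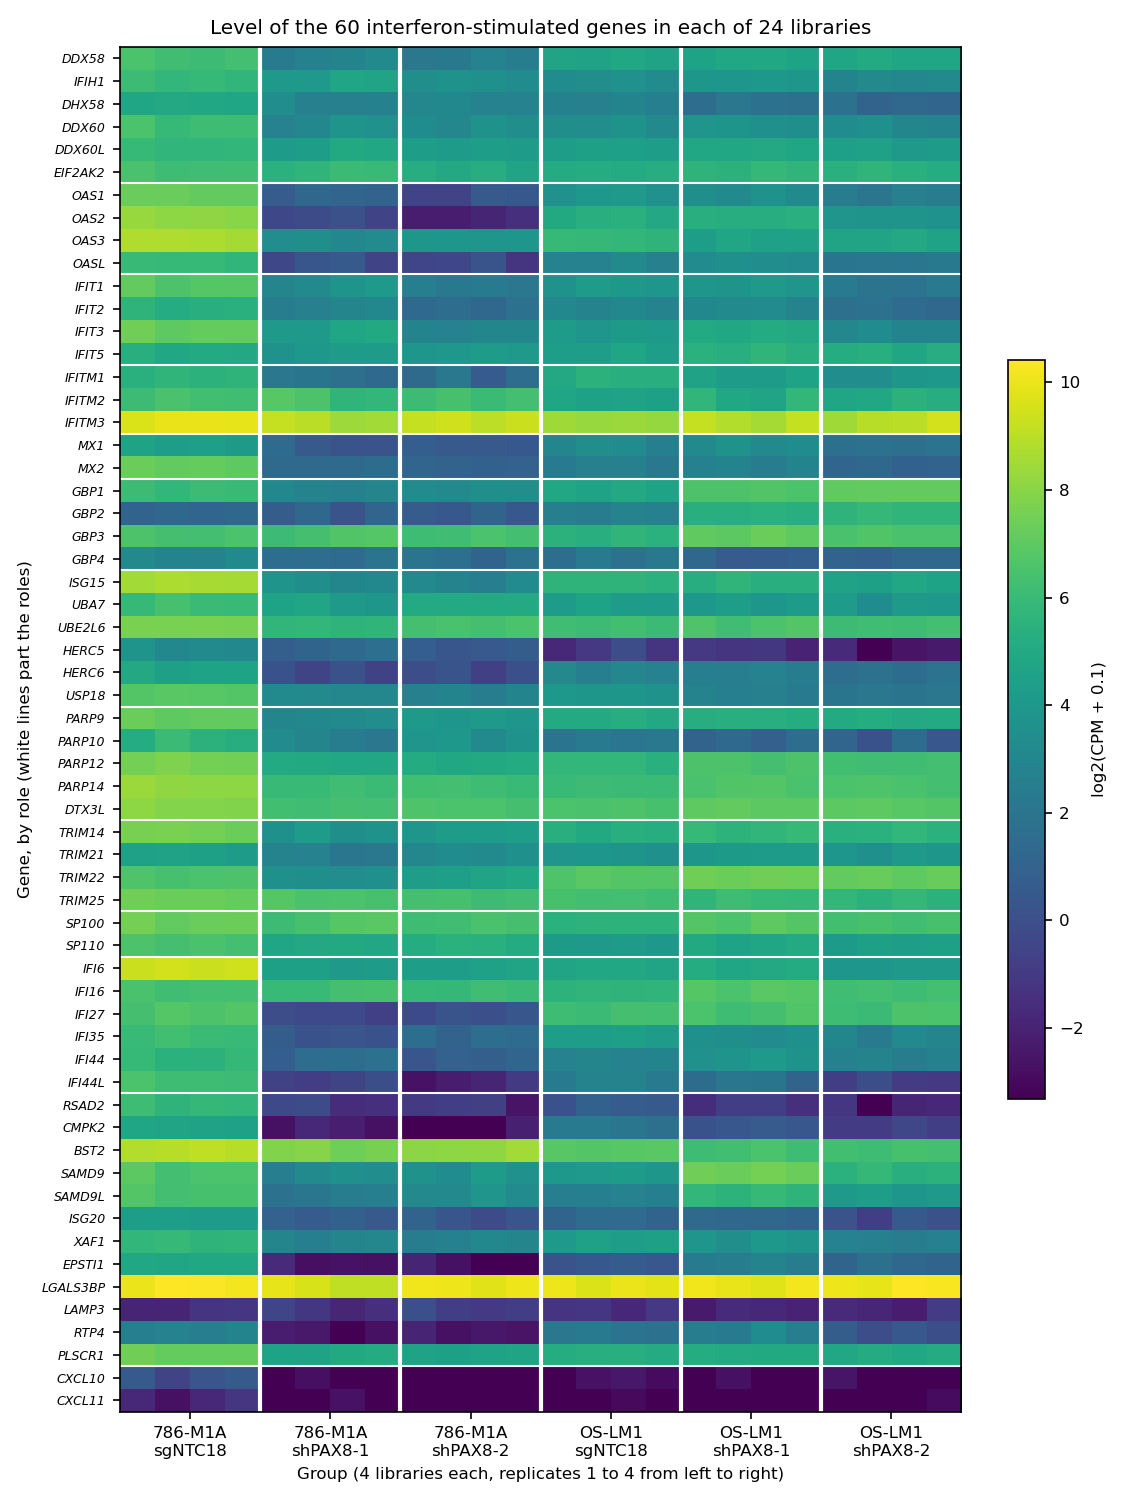
Level of all 60 members (rows, by role) in each of the 24 libraries (columns, by group), as log2 of CPM plus 0.1. The 4 columns of 786-M1A sgNTC18 are brighter than the rest for most rows, and rows such as GBP2, SAMD9 and IFI27 depart from this pattern.

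The first question is how the members differed between PAX8-depleted and sgNTC18 cells of the same line. In 786-M1A, 58 members passed the filter and 54 were lower with shPAX8-1, where 34.5% of all 14452 genes tested were lower, and none was higher against 36.1% of all genes (edgeR quasi-likelihood test, Benjamini-Hochberg adjusted p under 0.05 over all genes tested). With shPAX8-2, 54 were again lower, beside 30.9% of all genes, and none was higher, beside 31.5%. The median log2 fold change of the members was -2.94 with shPAX8-1 and -2.87 with shPAX8-2, while that of all genes was 0.03 and 0.02. A change of more than 2-fold downward was called for 50 members with shPAX8-1 and 51 with shPAX8-2, beside 18.6% and 13.1% of all genes. Both comparisons share the same 4 sgNTC18 libraries. CXCL10, which passed the filter through its high group, is among the 54, and without it 53 of 57 members were lower with each construct. EPSTI1, CMPK2 and RTP4 held at most 4 counts in any depleted 786-M1A library, so they also passed through the sgNTC18 group. The filter fixed the direction of these members in advance, and they are still among the 53 and among those called more than 2-fold lower. RSAD2, with 4 to 17 counts per library with shPAX8-1 and 1 to 9 with shPAX8-2, is also among those. Whether RSAD2 would pass without the sgNTC18 group was not tested.

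In OS-LM1, 57 members passed the filter and they did not move as 1 group. With shPAX8-1, 26 were higher and 15 lower, beside 35.6% and 35.8% of all 15049 genes. With shPAX8-2, 18 were higher and 29 lower, beside 34.3% and 34.1% of all genes. The median log2 fold change of the members was 0.20 and -0.37. More than 2-fold changes were called upward for 8 members with shPAX8-1 and 5 with shPAX8-2, beside 15.0% and 12.8% of all genes. They were called downward for 5 and 21 members, beside 16.6% and 14.3% of all genes. Of 6 fibroblast markers, 5 were tested in OS-LM1, and 5 were higher with shPAX8-1 (median log2 fold change 2.62) and 4 with shPAX8-2 (3.01).

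**Figure D3:**
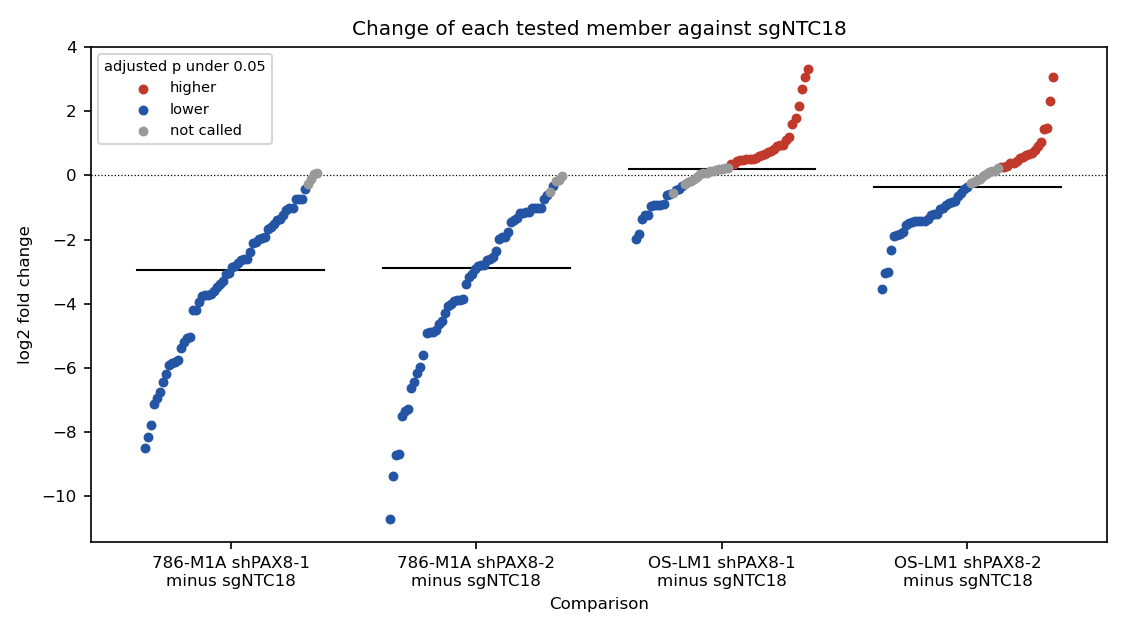
Log2 fold change of each tested member against sgNTC18 for the 4 combinations of line and construct, members sorted by value within each comparison; colour gives the call at an adjusted p under 0.05, and black lines mark the medians. The medians are -2.94 and -2.87 in 786-M1A and 0.20 and -0.37 in OS-LM1.

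The 2′-5′ oligoadenylate synthetases, which make the second messenger that activates RNase L, included the gene with the largest difference in 786-M1A, OAS2. All 4 were lower with both constructs, with a median log2 fold change of -6.04 and -6.90. OAS2 was at 322, 273, 278 and 249 CPM in the 4 sgNTC18 libraries, at 0.680, 0.801, 0.963 and 0.608 with shPAX8-1 and at 0.114, 0.108, 0.166 and 0.267 with shPAX8-2. The groups did not overlap, and the shPAX8-2 group rests on 10 counts in all, against 27030 in the sgNTC18 group. The fitted log2 fold changes of OAS2 were -8.49 ± 0.17 (SE, adjusted p = 5.5e-14, edgeR) and -10.71 ± 0.20 (adjusted p = 3.1e-14). In OS-LM1, OAS2 was at 31.3 to 41.6 CPM with sgNTC18, 37.5 to 41.6 with shPAX8-1 and 12.6 to 14.2 with shPAX8-2. The first 2 of these ranges overlapped (log2 fold change 0.08 ± 0.10, adjusted p = 0.52), and the third lay below both (-1.42 ± 0.11, adjusted p = 1e-09). OAS3 moved the same way in both lines, from 376 to 450 CPM with sgNTC18 to 8.37 to 11.2 and 14.3 to 15.4 with the constructs in 786-M1A, and from 48.2 to 58.7 to 21.1 to 27.4 and 24.2 to 31.6 in OS-LM1.

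The MX GTPases, which trap incoming viral particles, and the IFIT proteins, which bind viral RNA that lacks host cap marks, followed. MX2 was at 128 to 162 CPM in 786-M1A sgNTC18 libraries and at 1.82 to 2.82 in the 8 PAX8-depleted libraries. In OS-LM1 it was at 4.49 to 6.30 CPM with sgNTC18, 5.38 to 7.30 with shPAX8-1 and 1.84 to 2.27 with shPAX8-2, so that the last group stood apart from both. IFIT1, IFIT2, IFIT3 and IFIT5 were all lower in 786-M1A with both constructs. IFIT3 was at 176, 128, 143 and 144 CPM with sgNTC18, at 16.8, 17.1, 27.7 and 32.4 with shPAX8-1 and at 7.23, 6.64, 7.96 and 7.93 with shPAX8-2. In OS-LM1 the constructs moved IFIT3 in opposite directions from 14.4 to 18.6 CPM with sgNTC18, to 29.3 to 35.6 with shPAX8-1 (log2 fold change 0.92 ± 0.12, adjusted p = 9.5e-07) and to 7.22 to 10.2 with shPAX8-2 (-1.05 ± 0.13, adjusted p = 4.4e-07). IFIT5 rose with both constructs in OS-LM1, by 0.95 and 0.69 on the log2 scale.

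ISG15 and the 5 genes of its conjugation and removal were all lower in 786-M1A with both constructs. ISG15 was at 368, 421, 389 and 382 CPM in 786-M1A sgNTC18 libraries, at 13.9, 11.5, 7.83 and 8.40 with shPAX8-1 and at 8.65, 7.07, 5.88 and 9.93 with shPAX8-2. The PAX8-depleted groups overlapped each other and lay below the control, at a log2 fold change of -5.20 ± 0.19 (adjusted p = 2.8e-11) and -5.60 ± 0.20 (adjusted p = 2.4e-11). In OS-LM1, ISG15 was at 44.3 to 49.4 CPM with sgNTC18, at 37.7 to 50.5 with shPAX8-1 (not called, adjusted p = 0.078) and at 22.4 to 29.9 with shPAX8-2 (-0.91 ± 0.11, adjusted p = 4e-07). USP18, which removes ISG15 and also restrains the receptor and was chosen after its values were seen, was lower in all 4 comparisons. Its log2 fold changes were -3.68 and -4.08 in 786-M1A and -1.37 and -1.88 in OS-LM1. UBE2L6, the conjugating enzyme, was at 195 to 203 CPM in 786-M1A sgNTC18 libraries and at 49.5 to 93.3 in the PAX8-depleted ones.

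Of the 6 IFI genes, which share a name and not a structure, 5 were lower in 786-M1A with both constructs. IFI27, a mitochondrial protein, was at 82.7, 110, 96.8 and 106 CPM in 786-M1A with sgNTC18, at 0.837, 0.706, 0.722 and 0.497 with shPAX8-1 and at 0.740, 1.08, 0.912 and 1.20 with shPAX8-2. Its log2 fold changes there were -7.12 ± 0.18 (adjusted p = 4.9e-13) and -6.62 ± 0.18 (adjusted p = 8.3e-13). In OS-LM1, IFI27 was at 65.0 to 81.7 CPM with sgNTC18, 71.8 to 102 with shPAX8-1 and 65.4 to 96.0 with shPAX8-2. These 3 ranges overlapped, and neither construct gave a call (adjusted p = 0.15 and 0.35). IFI27, named here after its values were seen, was thus near 1 CPM in the 8 PAX8-depleted 786-M1A libraries and at 65.0 or above in the other 16. IFI6, which protects cells from apoptosis, was at 644 to 724 CPM in 786-M1A sgNTC18 libraries and at 15.0 to 35.8 CPM in all other 20 libraries. IFI16, a sensor of DNA in the nucleus, was called lower in 786-M1A only with shPAX8-2, at -0.32 (adjusted p = 0.041, lost without any 1 of 5 libraries), and higher in OS-LM1 with both constructs, at 1.12 and 0.63.

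**Figure D4:**
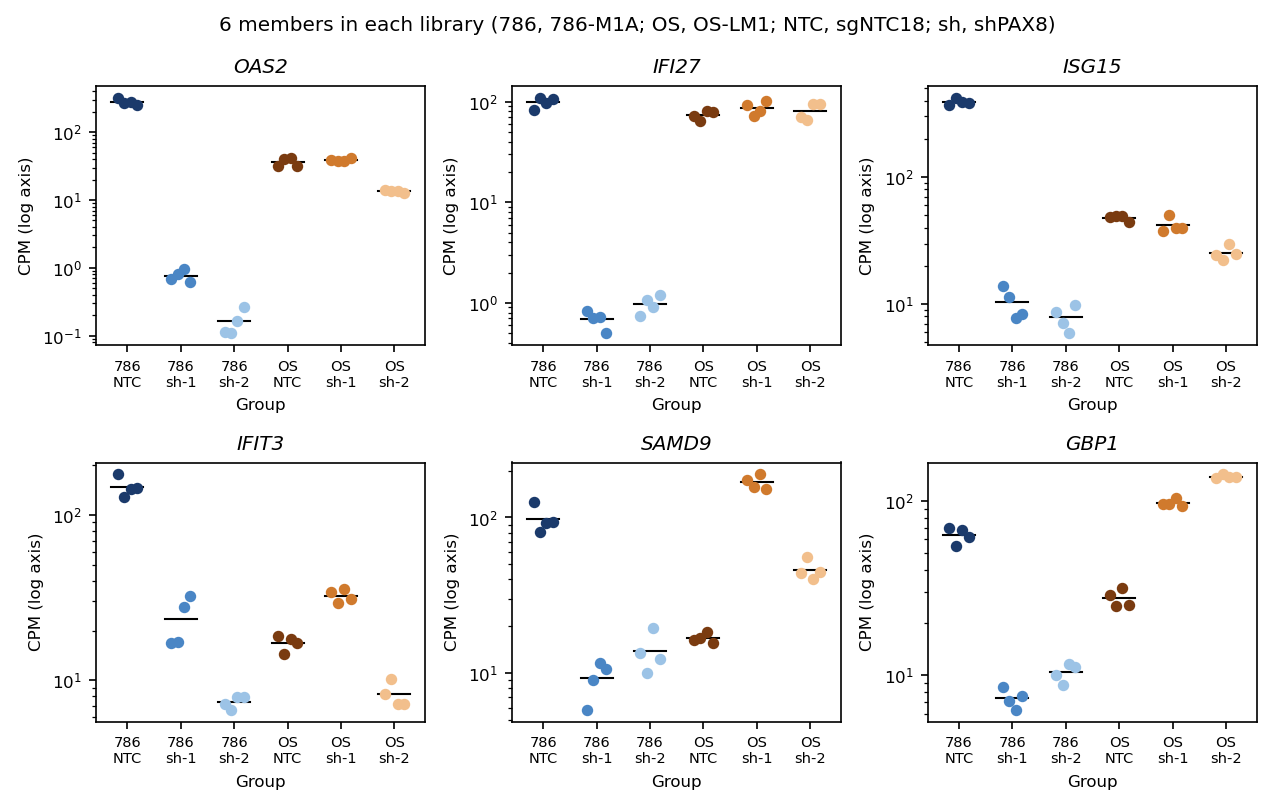
CPM (log axis) of OAS2, IFI27, ISG15, IFIT3, SAMD9 and GBP1 in each library, by group; points are libraries and lines the means of 4. OAS2, IFI27 and ISG15 are at least 36.9-fold lower with both constructs than with sgNTC18 in 786-M1A, while SAMD9 and GBP1 fall in 786-M1A and rise in OS-LM1.

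The sensors of viral RNA were lower in 786-M1A and mixed in OS-LM1. All 6 members of this role, among them DDX58 (RIG-I) and IFIH1 (MDA5), were lower in 786-M1A with both constructs, with a median log2 fold change of -1.68 and -2.14. In OS-LM1, 3 rose and 1 fell with shPAX8-1, beside 35.6% and 35.8% of all genes. There, 1 rose and 2 fell with shPAX8-2, beside 34.3% and 34.1% of all genes. With a GC trend removed, DDX60L (0.08, adjusted p = 0.40, edgeR) and EIF2AK2 (0.10, adjusted p = 0.23) were no longer called with shPAX8-1. EIF2AK2, the RNA-activated kinase that halts translation, had the smallest difference of the role in 786-M1A with each construct, from 71.0 to 87.6 CPM with sgNTC18 to 44.5 to 66.4 with shPAX8-1 and 26.3 to 38.2 with shPAX8-2. Its call with shPAX8-1 there (-0.43, adjusted p = 0.016) was lost with replicates 3 and 4 only (-0.22, adjusted p = 0.14) and without sgNTC18 replicate 1 (-0.37, adjusted p = 0.052). In OS-LM1, EIF2AK2 was at 37.4 CPM or less with sgNTC18, at 46.2 to 56.2 with shPAX8-1 and at 36.8 to 50.1 with shPAX8-2, and its call with shPAX8-2 (0.26, adjusted p = 0.027) was lost or, with a GC trend removed, turned to -0.06 under some alternatives. DHX58, which modulates both sensors and was chosen after its values were seen, was lower in all 4 comparisons, at -1.95, -1.92, -0.95 and -1.42.

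Some members did not follow the programme in 786-M1A. The guanylate-binding proteins, GTPases known above all as targets of type II interferon, split, with GBP1 and GBP4 lower with both constructs and GBP2 and GBP3 not called. GBP3 was at 80.0 to 96.6 CPM with sgNTC18, 69.2 to 109 with shPAX8-1 and 70.8 to 91.0 with shPAX8-2, and these ranges overlapped. With a trend with GC content removed, however, GBP3 was called lower with shPAX8-1 (-0.377, adjusted p = 3.7e-05, edgeR). IFITM2, which blocks viral entry at endosomes, was at 67.6 to 90.5 CPM with sgNTC18 and at 51.7 to 114 with shPAX8-1, where the replicate pairs 1 and 2 and 3 and 4 lay at opposite ends. LGALS3BP, a secreted glycoprotein, was at 1027 to 1376 CPM with sgNTC18, 546 to 983 with shPAX8-1 (log2 fold change -0.74 ± 0.16, adjusted p = 8.9e-04) and 913 to 1110 with shPAX8-2 (-0.19 ± 0.16, adjusted p = 0.33). The shPAX8-1 call of LGALS3BP was lost when a trend with GC content was removed (-0.11). LAMP3 and CXCL11 did not pass the filter in either line, and CXCL10, a chemokine that draws T cells, did not pass in OS-LM1.

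CXCL10 passed that filter through the sgNTC18 group alone. It held 112 counts over those 4 libraries, or 0.608 to 1.41 CPM, against 1 count over the 4 shPAX8-1 libraries and 0 over the 4 shPAX8-2 libraries of 786-M1A. A count of 0 there allows up to 0.0475 CPM (3 counts over the group), so that CXCL10 was at least 24.4-fold higher with sgNTC18 than with shPAX8-2. These limits cover counting error only.

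Some members moved in opposite directions in the lines, and others were lower in both. With shPAX8-1, 22 members were lower in 786-M1A and higher in OS-LM1, and 15 were lower in both lines. With shPAX8-2 these numbers were 14 and 29. The shares of all genes with these joint calls were not computed. With both constructs, 13 of the 57 members tested in both lines were lower in 786-M1A and higher in OS-LM1, beside 2.67% of all 13737 genes tested in both. This excess depends on 786-M1A, where 54 of the 58 members tested were lower with each construct. In OS-LM1 alone, 26 of 57 members were higher with shPAX8-1 and 18 with shPAX8-2, beside 35.6% and 34.3% of all genes. The 13 comprised the antiviral restriction factors SAMD9 and SAMD9L, GBP1, EPSTI1, the ADP-ribosyltransferases PARP12 and PARP14 with the ubiquitin ligase DTX3L, the ligases TRIM14 and TRIM22, SP100, EIF2AK2, IFIT5 and IFITM3. The EIF2AK2 call with shPAX8-1 was lost under some alternatives in each line, as given above. In OS-LM1 with shPAX8-2 the calls of EIF2AK2, TRIM14 and TRIM22 were lost under at least 1 alternative, TRIM14 without sgNTC18 replicate 2 (0.24) or shPAX8-2 replicate 3 (0.23). SAMD9 was at 126, 80.8, 91.8 and 93.1 CPM in 786-M1A with sgNTC18, at 5.80 to 11.7 with shPAX8-1 and at 10.0 to 19.5 with shPAX8-2. In OS-LM1 it was at 16.2, 16.8, 18.3 and 15.7 CPM with sgNTC18, at 173, 157, 190 and 153 with shPAX8-1 and at 43.7, 56.1, 40.2 and 44.8 with shPAX8-2. The depleted OS-LM1 libraries with shPAX8-1 thus held more SAMD9 than the high 786-M1A controls, and the 3 OS-LM1 groups did not overlap. The log2 fold change of SAMD9 in OS-LM1 was 3.30 ± 0.11 (adjusted p = 7.4e-15) with shPAX8-1 and 1.46 ± 0.11 (adjusted p = 6.7e-10) with shPAX8-2. SAMD9L, its neighbour on chromosome 7, changed by 3.07 ± 0.12 and 1.46 ± 0.12.

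GBP2 and GBP1 were the members that rose most with shPAX8-2 in OS-LM1, while GBP3 rose by 1.04 on the log2 scale. GBP2 was at 5.59 to 7.09 CPM with sgNTC18, 38.7 to 43.7 with shPAX8-1 and 48.6 to 57.8 with shPAX8-2, which is 3.07 ± 0.10 on the log2 scale for shPAX8-2 (adjusted p = 7.4e-15). GBP1 was at 25.0 to 31.6, 93.3 to 103 and 134.5 to 141.6 CPM. Both genes therefore had the order sgNTC18, shPAX8-1, shPAX8-2 without overlap, while in 786-M1A GBP2 stayed between 1.08 and 2.37 CPM in all 12 libraries. GBP4, chosen after its values were seen, was lower with both constructs in OS-LM1 too (-1.22 and -0.86).

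The difference between the lines was tested directly. The test uses the 786-M1A sgNTC18 libraries again, whose high member levels were known beforehand, so it is not independent of the counts above. The change from sgNTC18 to the mean of both constructs was higher in OS-LM1 than in 786-M1A for 56 of 58 members tested (29.9% of all 15665 genes) and lower for none (28.8%). The interaction had a median of 3.0 on the log2 scale over the members. The 2 members not called were GBP4 and HERC5. Without CXCL10, whose passing of the filter through 786-M1A sgNTC18 alone fixed its direction, 55 of 57 were higher. CXCL10 lost its call without OS-LM1 shPAX8-1 replicate 2 or shPAX8-2 replicate 1, and among the others IFITM2 (0.67, adjusted p = 0.044) and TRIM25 (adjusted p = 0.025) lost theirs without any of several libraries. OAS2 had an interaction of 8.97 ± 0.18 (adjusted p = 2.7e-23), IFI27 of 7.08 ± 0.20 (adjusted p = 4e-20) and SAMD9 of 5.51 ± 0.23 (adjusted p = 9.4e-17). PAX8 fell more in 786-M1A than in OS-LM1, with an interaction of 1.87 ± 0.17 (adjusted p = 7.5e-10), and the part of this in the members' interaction was not tested.

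The lines were also compared within a construct. Among sgNTC18 libraries, 54 members were lower in OS-LM1 than in 786-M1A (31.0% of all genes) and 1, GBP2, was higher (32.0%). Without CXCL10, 53 of 57 were lower. This comparison rests on the same high 786-M1A sgNTC18 libraries. The median log2 difference of the members was -2.09. Among PAX8-depleted libraries, 36 members were higher in OS-LM1 (41.7% of all genes) and 12 lower (41.5%), with a median of 0.49. Of the 54 members lower in OS-LM1 with sgNTC18, 32 were higher in OS-LM1 with shPAX8, among them OAS1, OAS2, ISG15, MX1, IFI27, IFI35 and EPSTI1, beside 4.34% of all 15665 genes with both calls. IFIT3 is also among the 32, and its difference with shPAX8 (0.30, adjusted p = 0.025) was lost with a GC trend removed (0.03, adjusted p = 0.76), after thinning and without any 1 of 4 libraries. The remaining 22 comprised 12 that were lower again, such as USP18, RSAD2 and BST2, and 10 that gave no call, such as IFIT1, IFIT2 and IFI6.

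Levels of different genes can be set side by side only per transcript length, as TPM. In 786-M1A sgNTC18 libraries the members with the highest level were IFITM3 (2730 ± 219 TPM, SD, n = 4), IFI6 (1550 ± 80.3) and ISG15 (1140 ± 51.4). In 786-M1A with shPAX8-1 they were IFITM3 (1230 ± 331), LGALS3BP (550 ± 165) and BST2 (363 ± 61.7), and IFI6 was at 42.6 ± 6.06 TPM. In OS-LM1 with sgNTC18 they were IFITM3 (890 ± 51.6), LGALS3BP (757 ± 86.1) and IFI27 (251 ± 23.7). IFITM3 and LGALS3BP led the order in all PAX8-depleted groups too.

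The constructs were then compared with each other. The sgNTC18 libraries enter this comparison only through the count filter, the scaling of the libraries and the shared estimate of the spread. In OS-LM1, 32 members were higher with shPAX8-1 than with shPAX8-2, where 12.4% of all genes were, and 2, GBP1 and GBP2, were lower, where 16.7% of all genes were. The median log2 difference was 0.51. The largest differences were those of IFI44L (2.60 ± 0.30, adjusted p = 2.9e-06), RTP4 (2.52) and IFIT3 (1.97 ± 0.13, adjusted p = 1.5e-09). IFI44L was at 2.01 to 4.18 CPM with shPAX8-1 and at 0.384 to 0.895 with shPAX8-2, without overlap. The ranges of PAX8 itself with the constructs in OS-LM1, given above, overlapped. The part of PAX8 level in the members' differences between constructs was not tested.

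In 786-M1A the constructs differed in both directions, with 12 members higher with shPAX8-1 (24.2% of all genes) and 14 lower (22.9%), and a median of 0.10. These shares lie close to those of all genes in each direction. The PAX8 ranges given above for 786-M1A did not overlap between the constructs, and PAX8 was lower with shPAX8-1. The part of this in the members' differences was not tested in this line either. Members higher with shPAX8-1 in both lines numbered 10 of 57, beside 5.15% of all genes tested in both, namely IFIH1, OAS1, OAS2, IFIT1, IFIT2, IFIT3, MX2, USP18, IFI44 and IFI44L. All 10 were lower than sgNTC18 in 786-M1A with either construct. With 786-M1A shPAX8-1 replicates 1 and 2 alone, IFI44, IFI44L and MX2 lost the call in that line, and with replicates 3 and 4 alone MX2 and USP18 did. MX2 also lost it with DESeq2 (adjusted p = 0.072), without the filter, after thinning, and without shPAX8-1 replicate 4 or shPAX8-2 replicate 2, 3 or 4. With a GC trend removed, USP18 (0.18) and IFI44 (0.28) lost it, and so did IFI44 after thinning or without any 1 of 6 libraries and USP18 without shPAX8-2 replicate 1. Members lower with shPAX8-1 in 786-M1A but higher in OS-LM1 were UBE2L6, SP110, IFI35 and SAMD9L, beside 1.14% of all genes. With shPAX8-1 replicates 1 and 2 alone, 9 members in all were lower in 786-M1A in place of 14, and GBP1 lost its call there. The call of UBE2L6 in OS-LM1 was lost without shPAX8-1 replicate 1 or 4 or shPAX8-2 replicate 1 (0.25 to 0.29).

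**Figure D5:**
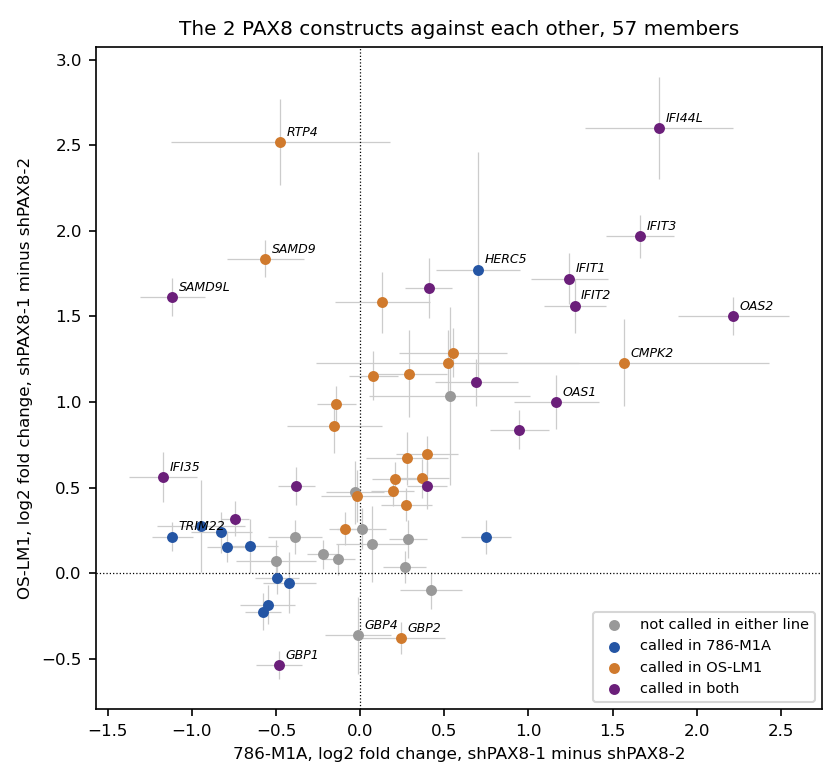
Log2 fold change of shPAX8-1 minus shPAX8-2 in 786-M1A (horizontal) and OS-LM1 (vertical) for the 57 members tested in both, with SE bars; colour gives the line in which the difference was called. IFI44L, IFIT3, OAS2, IFIT1 and IFIT2 are higher with shPAX8-1 in both lines, and GBP1 is lower in both.

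The genes that carry the interferon signal were read beside the members. STAT2, which binds DNA together with IRF9, was lower in 786-M1A by log2 fold changes of -1.69 and -1.08, and IRF9 by -1.91 and -1.58. IRF7, which amplifies interferon production, changed by -2.66 and -2.12 there, and IRF1 by -0.73 and -0.56. In OS-LM1, STAT2 was lower with shPAX8-1 (-0.40, adjusted p = 0.0073, edgeR) and not called with shPAX8-2 (-0.27, adjusted p = 0.059). IRF9 was lower with both, at -0.46 and -0.83, and so was IRF7, at -0.53 and -0.79, but with a GC trend removed neither was called with shPAX8-1 (-0.18 and -0.01). IRF1 was lower there with shPAX8-2 only (-0.44, adjusted p = 9.9e-04, against -0.12, adjusted p = 0.29). Of the 9 receptor chains and kinases, 4 were higher and 2 lower in 786-M1A with shPAX8-1, and 4 higher and none lower with shPAX8-2, beside the shares of all genes given above. In OS-LM1, 6 were higher and 1 lower with shPAX8-1, and 5 higher and 2 lower with shPAX8-2. All 9 were above 1 CPM in every group, and their summed level was 661 to 712 CPM in 786-M1A sgNTC18 libraries and 703 to 860 in the depleted ones.

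Transcripts of interferons themselves were near the limit of detection. IFNB1 held 10 counts over the 4 786-M1A sgNTC18 libraries, 2 over each of the depleted 786-M1A groups and 2 over the OS-LM1 sgNTC18 libraries. IFNA1, IFNA2 and IFNG held 0 counts in all 24 libraries, which allows up to 0.0312 CPM in the 786-M1A sgNTC18 group. None of the 9 interferon genes listed passed the filter in either line, so no change in them could be tested at this depth. Of 4 feedback inhibitors (SOCS1, SOCS3, PIAS1 and the member USP18), 3 were higher and 1 lower in 786-M1A with shPAX8-1, and 2 higher and 1 lower in each of the other 3 comparisons. Of 12 genes of MHC class I antigen presentation, which interferons also raise, 11 were lower in 786-M1A with each construct, and 11 and 10 in OS-LM1. Over these 4 comparisons, 31.5% to 36.1% of all genes were higher and 30.9% to 35.8% were lower.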

How the data were processed

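RNA-seq was measured in 24 libraries, 12 of each cell line. Per the labels and the study's methods, the authors aligned reads with Bowtie2 to hg38 and estimated abundance per gene with RSEM, for which no version is given in the sources used here. The deposited tables hold expected counts, not normalized, and TPM, which the authors scaled by transcript length and library. The labels name a stranded KAPA mRNA kit with a dUTP step and the study's methods a Lexogen kit, and which was used is not settled here.

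Expected counts were rounded and filtered with filterByExpr, scaled by TMM and tested with edgeR 4.0.16 (R 4.3.3, robust quasi-likelihood test, Benjamini-Hochberg adjustment over all genes tested, threshold 0.05), in a fit of 12 libraries per line and a fit of all 24 for comparisons between lines. Log2 CPM used a prior count of 2. The scripts were tested on simulated data. The members and gene lists were chosen with earlier results of these data known. Genes named with values were the 2 most abundant members of each of 13 roles, the 3 largest called changes in each of 4 comparisons with sgNTC18, members called in opposite directions in the lines, and pathway genes, of which 1 is not reported here. IFI27, USP18, DHX58 and GBP4 were added after their values were seen. Limits from a count of 0 cover counting error only.

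The alternatives were DESeq2 1.42.0 (its size factors, and its own test), no filter beyond 1 count, a threshold of 2-fold, removal of a GC trend (87.5% of genes had a GC value), libraries thinned to the smallest total, a replicate block (the replicate number within each line), each library left out, and each pair of 786-M1A shPAX8-1 replicates alone. Promoter sequences came from RefSeq (GRCh38.p14), and construct sequences from the study's supplementary list.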

Additional observations from a re-analysis of the deposited data

Results flagged for a closer look

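Among 215 groups of 4 libraries with a mean of at least 1 CPM, 15 held 1 library far from the others, where chance flags about 1 in 20, or 10.8. In OS-LM1 sgNTC18 libraries, replicate 3 was high for OASL (9.46 CPM, others 6.33 to 6.85) and IFIT5 (26.54, others 20.4 to 20.9), and replicate 4 low for PARP12 (42.48, others 53.9 to 55.8). In OS-LM1 shPAX8-1, replicate 3 was low for PARP12 (81.89, others 94.7 to 97.2) and high for RTP4 (10.08, others 5.08 to 5.69), and without it RTP4 lost its call against sgNTC18 (log2 fold change 0.37). In OS-LM1 shPAX8-2, GBP3 stood out at 102.6 CPM in replicate 2 and TRIM14 at 53.99 in replicate 3. In 786-M1A sgNTC18 libraries, PARP14 was at 325.6 CPM and IFI44L at 92.05 in replicate 1, and EPSTI1 at 26.59 in replicate 2. In 786-M1A shPAX8-1, MX1 was at 2.667 CPM in replicate 1, TRIM14 at 18.75 in replicate 2 and MX2 at 2.817 in replicate 4. In 786-M1A shPAX8-2, LGALS3BP was at 913 CPM in replicate 3 and BST2 at 371.8 in replicate 4.

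The change from sgNTC18 to PAX8 depletion differed between the lines, by a test of the interaction, for 56 members, among them each of the 13 members lower in 786-M1A and higher in OS-LM1 with both constructs. The log2 difference was 5.94 for SAMD9L, 5.51 for SAMD9, 4.92 for GBP1, 4.01 for TRIM14, 3.28 for PARP12, 3.02 for TRIM22 and 2.56 for PARP14. It was 1.98 for DTX3L, 1.88 for SP100, 1.87 for IFIT5, 1.501 for IFITM3 and 1.20 for EIF2AK2. For EPSTI1 it was 9.995, a value that rests on 7 and 4 counts in the depleted 786-M1A groups.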

How the results depend on the processing

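Of 428 alternative values of 24 counts and levels, 395 stayed within 1.5 times the reported count or within 1 SD of the reported level, and the level per library was among these with other size factors. The number of members higher in 786-M1A with shPAX8-1 than with sgNTC18 was 1 in place of 0 with replicates 1 and 2 only, with replicates 3 and 4 only, and with the GC trend removed. A threshold of 2-fold left 8 higher and 5 lower for OS-LM1 shPAX8-1 against sgNTC18, 5 higher for shPAX8-2, 6 higher and 3 lower between the constructs in 786-M1A, 16 higher and 0 lower between them in OS-LM1, and 5 lower in OS-LM1 between the depleted lines. The contrast of the constructs in 786-M1A held 9 lower members when shPAX8-1 was represented by replicates 1 and 2. With DESeq2, 2 members were higher in OS-LM1 between the sgNTC18 groups, and 1 had a lower interaction with DESeq2 or without the filter.

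Leaving out each library gave 53 to 54 lower members for 786-M1A shPAX8-1 and 53 to 55 for shPAX8-2, 25 to 26 higher and 13 to 15 lower for OS-LM1 shPAX8-1, 14 to 19 higher and 27 to 30 lower for OS-LM1 shPAX8-2, 9 to 16 and 13 to 15 between the constructs in 786-M1A, and 29 to 34 and 2 in OS-LM1. It gave 1 to 2 higher and 54 to 55 lower between the sgNTC18 groups, 35 to 36 and 11 to 13 between the depleted lines, and 54 to 57 higher and 0 to 1 lower for the interaction.

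Of 8170 alternative values of 356 called changes, 8026 kept direction and call, 142 lost the call and 2 reversed, which were EIF2AK2 in OS-LM1 with shPAX8-2 (-0.05625) and IFITM3 between the constructs in 786-M1A (0.008154), both with the GC trend removed. Among 422 alternative values of changes not called, 21 became called in the same direction and 19 changed sign. These 19 were GBP3 in 786-M1A with shPAX8-1 (-0.2153 with replicates 1 and 2, -0.377 with the GC trend removed, -0.02207 to 0.1866 over left-out libraries), IFI16 there (0.07403 with replicates 3 and 4), IFITM2 there (-0.5379 with replicates 3 and 4, -0.01987 without the filter, -0.003249 with the replicate block, -0.1745 to 0.2072 over left-out libraries) and IFITM2 with shPAX8-2 (0.07392 with the GC trend removed, 0.001278 after thinning, -0.09398 to 0.04862 over left-out libraries). With the GC trend removed, IRF1 (0.07792), ISG15 (0.3431), MX1 (-0.05529) and OAS2 (-0.001149) changed sign in OS-LM1 with shPAX8-1. Of these, GBP3 with the GC trend removed (adjusted p = 3.7e-05, edgeR), ISG15 (adjusted p = 0.0012) and IFITM2 with replicates 3 and 4 (adjusted p = 0.0016) were called in the new direction. The cause was not tested.

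Same-numbered libraries of different groups had deviations with a mean correlation of 0.00313 over 24 pairs, against -0.0011 over 72 others. The correlations ran from -0.319 to 0.271 over the 24 and from -0.365 to 0.312 over the 72. Same-numbered libraries of 786-M1A shPAX8-1 and shPAX8-2 all had positive ones (0.037 to 0.271). The means therefore show no pairing over all groups, and do not show whether some groups were paired. The replicate block gave 54 lower members with each construct in 786-M1A, 26 higher and 14 lower for OS-LM1 shPAX8-1, and 16 higher and 29 lower for shPAX8-2. Depth limits the members with few counts in PAX8-depleted 786-M1A cells, such as EPSTI1, CMPK2, RTP4 and CXCL10.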
